A study of Mus musculus with 16 samples.

Results

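Calorie restriction (CR) was compared with feeding ad libitum (AL) in the tibialis anterior, a fast muscle of the lower leg, of mice whose mothers had been undernourished in pregnancy. The dams had received 50% less food in week 3 of gestation, which gives offspring of low birth weight, and both groups compared here carry that history. The comparison takes the 4 undernourished CR arrays and the 4 undernourished AL arrays, 8 of the 16 in the series, chosen by the maternal and offspring diets in their titles. The other 8 arrays are of offspring of normally fed dams (control AL and control CR, 4 each) and serve here to share the estimate of spread, to ask whether restriction acted differently in them and, for 2 control AL arrays rich in brain RNA, to sort the decreases. Each group had 8 mice whose muscle RNA was pooled in pairs, so 1 array is a pool of 2 mice. Litter, strain, sex, age and the degree and length of the restriction are not given in the sources used here, and the p-values measure the spread between pools.

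Skeletal muscle switches between glucose and fat as fuel with feeding. In fasting, FoxO transcription factors, glucocorticoids and PPAR nuclear receptors turn on genes that burn fat and break down protein, while after a meal insulin and SREBP-1c turn on genes that make fat. Muscle also holds a circadian clock whose phase follows feeding time, and a fetus short of food is known to set up later differences in muscle metabolism. The hour of dissection and the time since the last meal are not given in the sources used here.

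Levels are log2 processed signals minus the 75th percentile of the array, so 0 is that percentile, and changes are CR minus AL in log2 units with the standard error of the limma fit. The 2 diets were not run side by side: all AL arrays were on slides 1 and 2, scanned on 1 day, and all CR arrays on slides 3 and 4, scanned on another, so offspring diet cannot be told apart from slide set and scan day. On the 8 undernourished arrays 66.4% to 78.5% of spots were well above background, with lower shares on the AL arrays (66.4% to 69.1%) than on the CR arrays (74.3% to 78.5%). The 18 muscle markers identified the tissue on every one of these arrays, with medians of 8.48 to 8.90. The AL arrays also carried brain transcripts: the median of 38 brain markers was -0.99, -1.82, -2.004 and -2.56 on the AL arrays and -5.40, -5.01, -5.16 and -5.49 on the CR arrays. Skin markers (20 genes) were raised on AL replicate 3 and CR replicate 2, at -2.72 and -2.92, against -5.11 to -4.56 on the other 6, and liver markers (13 genes) on AL replicate 3, at -3.12 against -5.38 to -4.79. Leaving out AL replicate 3 and CR replicate 2 gives a comparison of 6 arrays, whose counts and lost calls are given beside the lists described below.

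**Figure D1:**
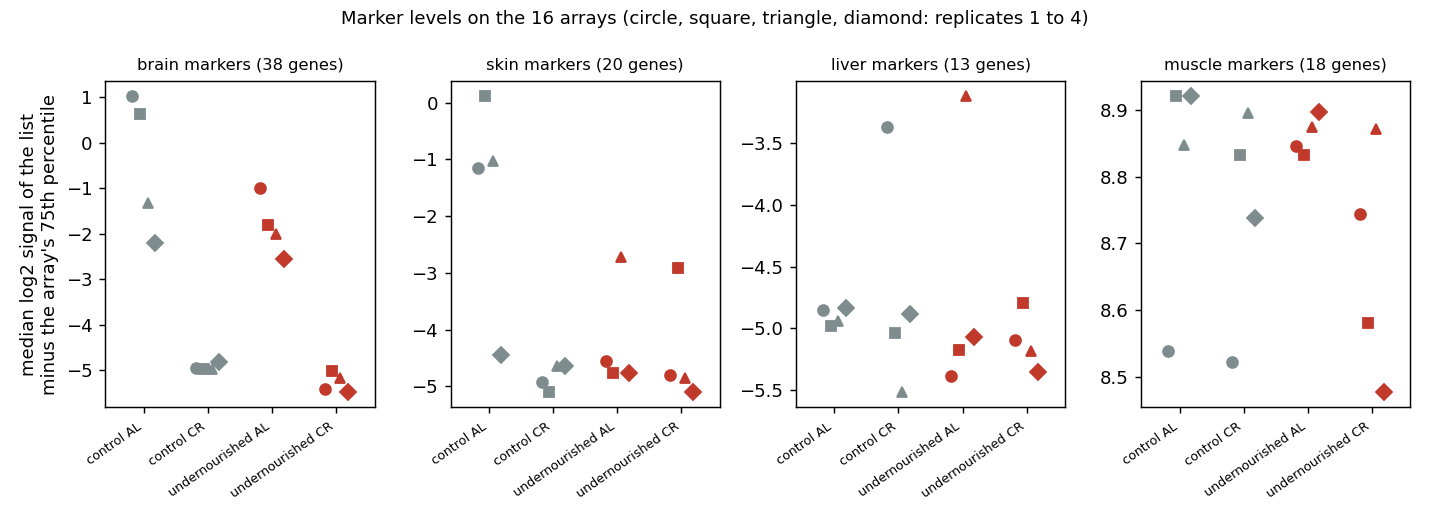
Median log2 signal of the brain, skin, liver and muscle marker lists on each of the 16 arrays, relative to the array's 75th percentile (y axis), by group (x axis); symbols give the replicate, red the undernourished groups and grey the control groups. Brain markers lie between -2.56 and -0.99 on the undernourished AL arrays and between -5.49 and -5.01 on the undernourished CR arrays.

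Muscle of restricted and freely fed offspring differed in many genes, in both directions. Of 24826 genes tested, limma called 5054 at an adjusted p under 0.05 (20.4%), 2609 higher in CR (10.5%) and 2445 lower (9.85%). More than 2-fold, 495 genes were called higher (1.99%) and 1130 lower (4.55%), but these counts were 859 and 846 after quantile normalization and 1464 and 354 in the authors' log2 table. The median change of all genes was 0.00. The 4 CR arrays lay wholly above the 4 AL arrays in 3347 genes (13.5%) and wholly below in 3122 (12.6%). With slide as a random block 3949 genes were called, and without AL replicate 3 and CR replicate 2 the count fell to 2638, with 1323 higher (5.33%) and 1315 lower (5.3%). The balance of directions depends on the scaling: 51.6% of calls were higher here, 62.4% after quantile normalization, 40.6% when the 75th percentile was taken over probes detected on all arrays, 22.9% after normexp background correction and 87.1% in the authors' log2 table, where the median of all genes moved by -0.24 (normexp) and 0.24 (authors' table). Among the genes named below, the calls ended in the authors' log2 table included those of Atp5g3, C1qb, Ccn1, Cdkn1a, Col1a2, Col3a1, Cpt2, Dpt, Egr2, Fkbp5, Ftl1, Gclm, H2-Aa, Igf1r, Mafg, Mafk, Mmp14, Myog, Odc1, Pdk4, Psma5, Psme3, Rps19, Sirt1, Slc7a11, Ucp2, Vldlr and Zim1. No fatty acid synthesis, iron or clock gene was called lower there, so the calls of Acacb, Lpin1, Fads2, Csnk1d and Ireb2 ended too. Further decreases described below may also have lost their calls in that table. A fit to the 8 undernourished arrays alone ended calls that included those of Cdkn1a, Cebpd, Cish, Dpt, Fkbp5, Grb14, Lmod1, Maff, Myod1, Myog, Per3, Psme3, Sirt2, Ucp2 and Zim1. Those ended by the slide block included Angptl4, Cdkn1a, Col1a2, Col3a1, Cpt2, Grb14, Myog, Pdk4, Per3, Psma5, Psme3 and Zim1. The gene lists below were compared with those background shares, and no list was tested as a set.

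**Figure D2:**
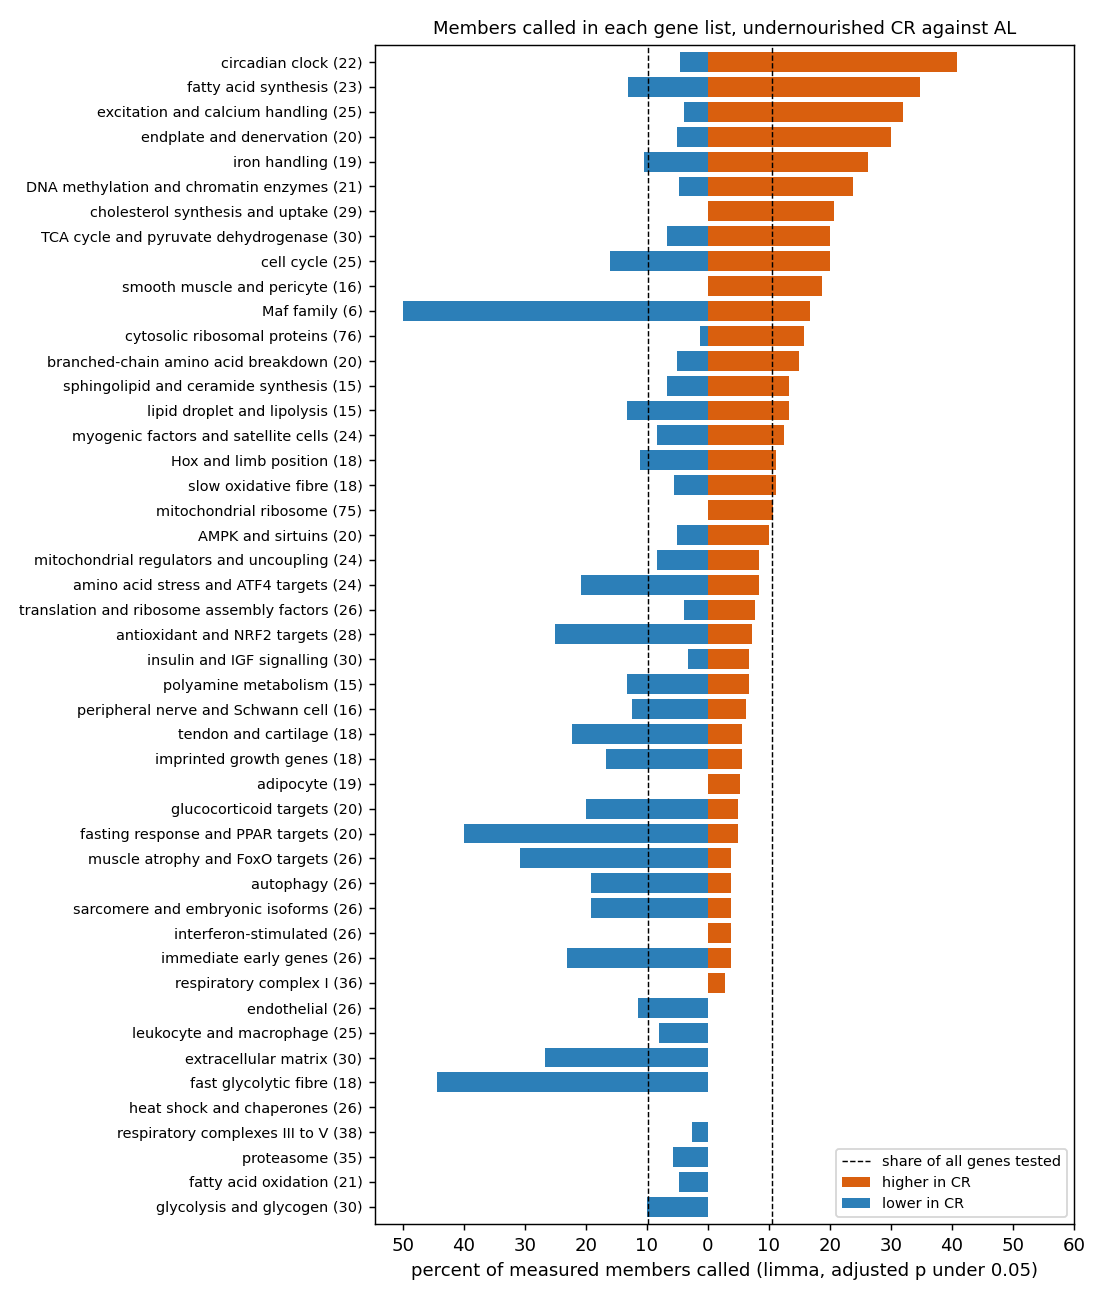
Share of each gene list's measured members called higher (right, orange) or lower (left, blue) in undernourished CR against AL (x axis, percent; limma, adjusted p under 0.05), with the number of measured members after each name. Dashed lines mark the shares of all genes tested, 10.5% higher and 9.85% lower; clock and fatty acid synthesis genes have the longest bars to the right, and the Maf family, fast glycolytic fibre and fasting response genes to the left.

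The 2 largest increases among called genes with a symbol were G0s2 and Scd1, both of fat metabolism. G0s2, which encodes an inhibitor of the triglyceride lipase ATGL, stood at -0.87, -1.33, -2.11 and -0.70 on the AL arrays and at 2.90, 3.10, 2.82 and 2.82 on the CR arrays. The groups lay far apart, and the CR pools were nearly equal (SD 0.133, against 0.631 in AL). The increase was 4.17 ± 0.50 (17.9-fold, adjusted p = 0.000144). Scd1, the desaturase that makes monounsaturated fatty acids, was at 1.34, 0.69, 0.36 and -0.21 in AL and 3.82, 2.87, 3.64 and 2.96 in CR, an increase of 2.78 ± 0.34 (6.85-fold, adjusted p = 0.000164). Fasn, the fatty acid synthase, was at 2.71, 2.29, 2.62 and 1.54 in AL and 5.15, 4.42, 4.47 and 4.24 in CR, an increase of 2.28 ± 0.29 (4.87-fold, adjusted p = 0.000214). For both enzymes every CR pool exceeded every AL pool by more than 1.5 log2 units.

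Fatty acid synthesis genes were called higher more often than all genes. Of 23 measured fatty acid synthesis genes 8 rose and 3 fell (34.8% and 13.0%, against 10.5% and 9.85% of all genes), and the list's median change was 0.37 against 0.00 for all genes. In the 6-array comparison 5 were higher and none lower: the calls of Srebf1, Acss2 and Dgat1, and of all 3 decreases, were lost. Srebf1, which encodes SREBP-1, the transcription factor that drives the pathway, rose by 1.13 ± 0.30 from 4.11, 3.76, 3.70 and 3.20 to 4.79, 5.10, 4.95 and 4.45. Its change over the 6 arrays was 1.04 (adjusted p = 0.0841). Slc25a1, the mitochondrial citrate exporter that supplies the carbon, rose by 1.08 ± 0.25, Thrsp, a lipogenic protein, by 0.75 ± 0.17, Acss2, which makes acetyl-CoA from acetate, by 0.59 and Dgat1, which completes triglycerides, by 0.44. Acaca, the cytosolic acetyl-CoA carboxylase that commits carbon to synthesis, rose by 1.099 ± 0.23, but the median of its probes gave -0.15. The 3 that fell were Acacb, the mitochondrial carboxylase isoform that restrains fat oxidation (-0.74 ± 0.21), Lpin1, a phosphatidate phosphatase (-0.85 ± 0.27), and Fads2, a polyunsaturated fatty acid desaturase (-0.49). Acly, Elovl6 and Me1 did not pass (changes of 0.33, 0.79 and 0.39). Of 15 lipid droplet and lipolysis genes 2 rose and 2 fell (13.3% each, near the shares of all genes), with a median of -0.08.

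**Figure D3:**
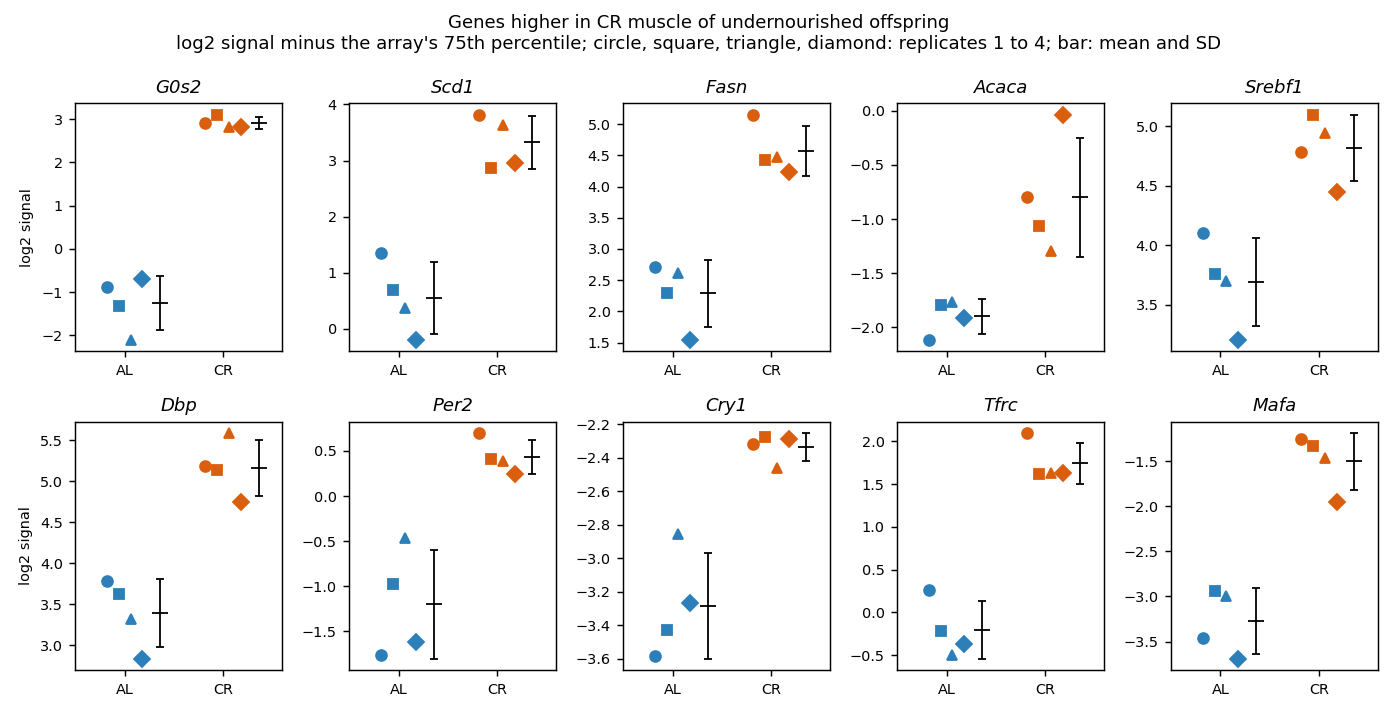
Log2 signal relative to the array's 75th percentile (y axis) of 10 genes called higher in CR, for the 4 AL arrays (blue) and 4 CR arrays (orange) of undernourished offspring; symbols give the replicate and bars the mean and SD. In each of the 10 genes the CR arrays lie above the AL arrays without overlap, with G0s2 furthest apart (-2.11 to -0.70 against 2.82 to 3.10).

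The promoter of Fasn is shown because this gene carries the pathway's result and because lipogenic promoters are known for CCAAT boxes bound by NF-Y beside SREBP. The sequence is RefSeq's, the 250 bases before the start of transcription on the minus strand of GRCm38.p6, chr11:120824548-120824797, written 5′ to 3′, with matches to CCAAT or its reverse complement ATTGG in capitals.
Fasn: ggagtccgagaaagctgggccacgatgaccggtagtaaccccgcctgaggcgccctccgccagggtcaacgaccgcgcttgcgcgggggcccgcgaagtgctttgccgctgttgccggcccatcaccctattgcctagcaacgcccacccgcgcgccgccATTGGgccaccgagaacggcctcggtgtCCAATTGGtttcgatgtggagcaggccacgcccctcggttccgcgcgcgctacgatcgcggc
The 3 matches begin at bases 161, 189 and 192 of this window, and the last 2 overlap on opposite strands. Of the 8 fatty acid synthesis genes that rose, 6 have an entry in the promoter table and 5 of these hold the motif in this window (Fasn, Srebf1, Thrsp, Acss2 and Slc25a1), against 33.8% of the 32851 promoters in the table.

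Of 29 measured genes of cholesterol synthesis and uptake 6 were higher and none lower by limma (20.7% higher, with a median change of 0.16), and the other 23 were not called. Dhcr7, the last enzyme of cholesterol synthesis, rose by 1.02 ± 0.22, Nsdhl, a sterol dehydrogenase, by 0.94 ± 0.16, Abca1, a cholesterol exporter, by 0.83 ± 0.21 and Mvd, which decarboxylates mevalonate, by 0.69 ± 0.18, though Mvd was not called in the 6-array comparison (0.70, adjusted p = 0.058). Of the 19 adipocyte genes only Retn, the adipokine resistin, was called: it was at -2.98, -3.47, -3.10 and -3.71 in AL and -0.89, -1.96, -1.05 and -1.32 in CR, a rise of 2.01 ± 0.29 (adjusted p = 0.000503). Adipoq, the adipokine made in largest amount by fat cells, ranged from -0.28 to 1.23 in AL and from 0.01 to 1.37 in CR, and its change of 0.24 ± 0.38 did not pass (adjusted p = 0.692). The summed linear signal of the adipocyte list was 262 to 487 times the 75th percentile in AL and 300 to 414 in CR, with overlapping groups. In pooled tissue, a change in the number of cells of a type and a change in RNA per cell cannot be told apart.

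Of 20 measured fasting response and PPAR target genes 8 were lower (40%, against 9.85% of all genes) and 1 higher (6 and none over the 6 arrays, where Pdk4, Ucp2 and Pdk2 were not called). The median change was -0.76, the lowest median of any list here other than brain markers. Pdk4, the kinase that shuts pyruvate out of oxidation in fasting, was at 8.53, 8.63, 8.57 and 9.04 in AL and at 6.07, 7.36, 3.57 and 6.91 in CR. All CR pools were lower, but they were far more spread than the AL pools, with replicate 3 lowest. The change was -2.72 ± 0.88 (6.58-fold lower, adjusted p = 0.0421). That call was lost without any 1 undernourished array other than CR replicate 2 or 4, with changes of -2.77 to -1.92, the smallest without CR replicate 3 (adjusted p = 0.121), and it was also lost with slide as a random block and with the replicate block.

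Other members of the programme gave steadier values. Plin5, which coats the lipid droplets of oxidative cells, was at 5.23, 5.12, 5.20 and 5.30 in AL and 2.77, 4.29, 2.85 and 3.65 in CR, lower by 1.82 log2 units (a change of -1.82 ± 0.37, 3.53-fold lower, adjusted p = 0.00385). Acot2, a mitochondrial thioesterase, was at 1.22, 1.73, 1.76 and 2.62 in AL and -0.08, 0.67, -0.25 and -0.26 in CR (-1.81 ± 0.36, adjusted p = 0.00347). The groups did not overlap in either gene. Angptl4, a secreted inhibitor of lipoprotein lipase, was at 3.34, 3.14, 2.03 and 3.97 in AL and 0.84, 1.43, -0.35 and 1.39 in CR (-2.29 ± 0.69, adjusted p = 0.0307). Its call was lost without AL replicate 1, 2 or 4 or CR replicate 1 or 3 (-2.30 to -1.90) and with slide as a random block. Vldlr, a lipoprotein receptor, Mlycd, which removes malonyl-CoA, and Ucp2, an uncoupling protein, fell by 0.98, 0.88 and 0.83, and the Ucp2 call was lost without AL replicate 2, 3 or 4 or CR replicate 1 or 3 (-0.83 to -0.69). Ucp3, the muscle uncoupling protein, was at 3.04 to 3.43 in AL and at 3.11, 1.86, 0.49 and 1.49 in CR, and its change of -1.55 ± 0.72 did not pass (adjusted p = 0.143). The enzymes of fatty acid oxidation themselves did not follow: of 21 measured only Cpt2, a carnitine palmitoyltransferase, was called (-0.43 ± 0.13), and its call was lost without any 1 of 5 arrays (AL replicates 1 and 4, CR replicates 1, 2 and 4, -0.43 to -0.37).

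Genes that control pyruvate dehydrogenase gave a mixed picture: Pdk4 fell, while the opposing phosphatase Pdp1 and other kinases of the Pdk family rose. Pdp1, the phosphatase that activates the complex, was at 2.45, 2.19, 1.96 and 2.005 in AL and 3.41, 3.25, 3.68 and 3.19 in CR, a rise of 1.23 ± 0.24 (adjusted p = 0.00304) with no overlap. The kinases Pdk1 and Pdk2 rose by 0.63 ± 0.12 and 0.52, and Pdha1, the catalytic subunit, by 0.54. Of the 30 measured genes of the citrate cycle and pyruvate dehydrogenase 6 rose and 2 fell (20% and 6.67%, against 10.5% and 9.85% of all genes), with a median of 0.23. Over the 6 arrays 3 were higher and none lower, the Pdha1 and Pdk2 calls among those lost. Idh2, the mitochondrial NADP isocitrate dehydrogenase, rose by 1.004 ± 0.24.

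**Figure D4:**
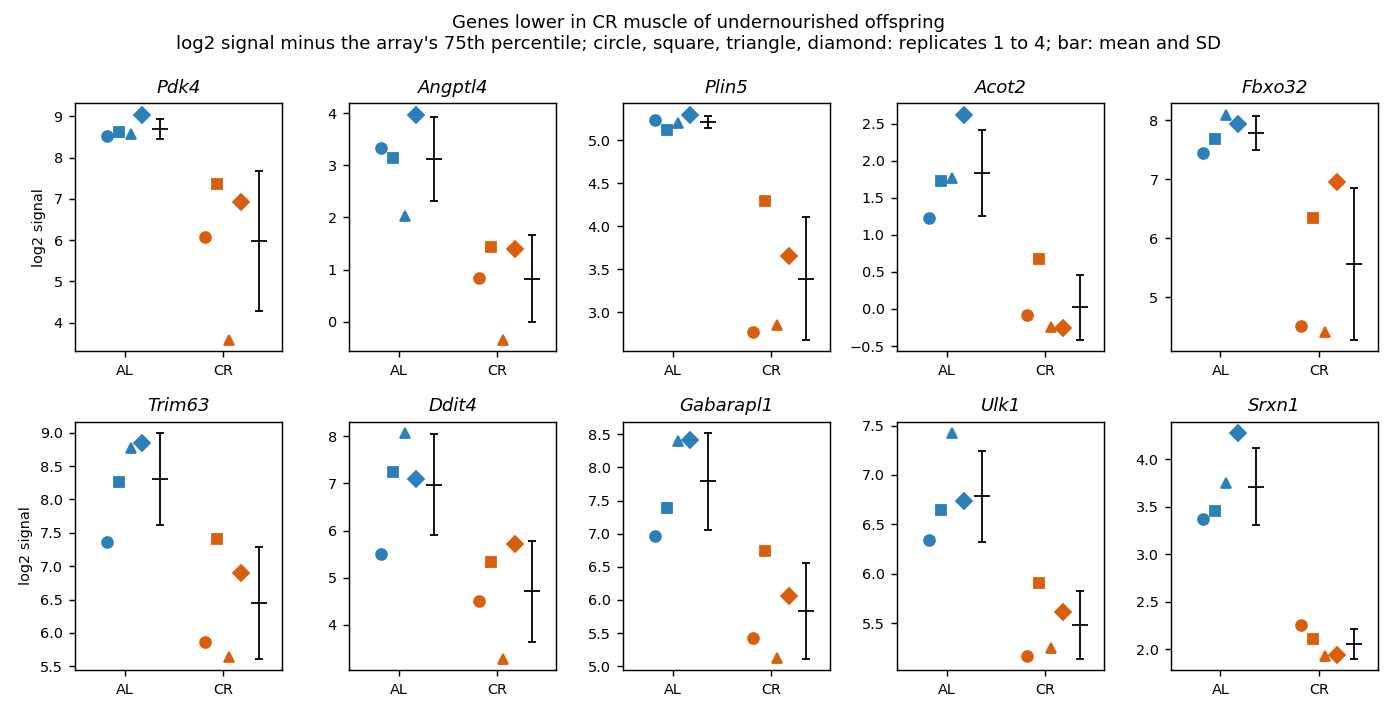
Log2 signal relative to the array's 75th percentile (y axis) of 10 genes called lower in CR, for the 4 AL arrays (blue) and 4 CR arrays (orange) of undernourished offspring; symbols give the replicate and bars the mean and SD. The CR arrays spread more widely than the AL arrays in Pdk4, Plin5 and Fbxo32, and the groups overlap in Trim63 and Ddit4.

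Of 26 measured atrophy genes and FoxO targets 8 were lower (30.8%, against 9.85% of all genes) and 1 higher (Nedd4, a ubiquitin ligase, 0.38), with a median change of -0.67. Over the 6 arrays 6 were lower and 1 higher, with the calls of Cdkn1a and Myog lost. Fbxo32, the ubiquitin ligase atrogin-1, was at 7.44, 7.68, 8.09 and 7.94 in AL and 4.52, 6.34, 4.42 and 6.96 in CR. The groups did not overlap, and CR replicates 1 and 3 lay about 2 log2 units under the other pair. The change was -2.23 ± 0.55 (4.68-fold lower, adjusted p = 0.0114). Trim63, the ligase MuRF1, was at 7.36, 8.26, 8.77 and 8.85 in AL and 5.87, 7.41, 5.64 and 6.89 in CR (-1.86 ± 0.44, adjusted p = 0.00941). Here AL replicate 1 lay under CR replicate 2, so the groups overlapped. Ddit4, an inhibitor of mTOR signalling that glucocorticoids induce, was at 5.50, 7.24, 8.07 and 7.09 in AL and 4.51, 5.33, 3.28 and 5.71 in CR (-2.27 ± 0.57, adjusted p = 0.0122), again with overlap.

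Gadd45a, a stress protein of denervated and fasted muscle, fell by 1.95 ± 0.31 (adjusted p = 0.00084) from 4.17, 4.53, 4.92 and 4.68 to 2.20, 3.47, 2.23 and 2.60. Fbxo30, the ligase MUSA1, was at 1.43, 1.66, 2.05 and 1.79 in AL and 0.01, 0.71, -0.13 and 0.69 in CR, a change of -1.41 ± 0.24. The groups did not overlap in either gene, and CR replicates 1 and 3 were again the lowest. The other 3 that fell were Cebpd, a glucocorticoid-induced transcription factor (-1.69 ± 0.48), Cdkn1a, the cell cycle inhibitor p21 (-1.49 ± 0.47), and Myog, the myogenic factor myogenin (-1.18 ± 0.38). Their calls were lost without AL replicate 3 or 4 or CR replicate 1 or 3 for all 3, and for some without AL replicate 2 or CR replicate 2 as well, at -1.54 to -1.29, -1.53 to -1.17 and -1.30 to -0.88. Foxo1, the FoxO factor of fasting muscle, changed by -0.66 ± 0.37, Mstn, the growth inhibitor myostatin, by -0.14 ± 0.19, and neither passed (adjusted p = 0.23 and 0.644). Of 35 proteasome genes none rose and 2 fell, Psme3 and Psma5, by 0.52 and 0.45, with calls lost without AL replicate 1, 2 or 3 or CR replicate 1 or 4 (Psme3, -0.54 to -0.42) and without any 1 array other than CR replicate 4 (Psma5, -0.48 to -0.40).

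The Trim63 promoter is shown because FoxO factors are known to act on this gene. The sequence is RefSeq's, the 250 bases before the start on the plus strand of GRCm38.p6, chr4:134314870-134315119, 5′ to 3′, with the match to the FoxO motif GTAAACA, here as its reverse complement TGTTTAC, in capitals.
Trim63: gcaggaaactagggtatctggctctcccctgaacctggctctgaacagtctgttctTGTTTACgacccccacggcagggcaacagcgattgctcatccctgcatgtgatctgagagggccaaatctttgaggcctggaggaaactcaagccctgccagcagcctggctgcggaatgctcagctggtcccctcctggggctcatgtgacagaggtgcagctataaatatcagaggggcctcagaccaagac
The match begins at base 57. Of the 8 atrophy genes that fell, 6 have an entry and Trim63 alone holds the motif in this window, against 3.17% of all promoters in the table.

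Autophagy genes divided. Of 26 measured 5 fell and 1 rose (19.2% and 3.85%, against 9.85% and 10.5% of all genes), and the median was -0.06. Over the 6 arrays the Wipi1 call was lost (limma, -0.65, adjusted p = 0.0512). Gabarapl1, an autophagosome protein, was at 6.97, 7.39, 8.39 and 8.41 in AL and 5.42, 6.74, 5.12 and 6.06 in CR (-1.96 ± 0.38, 3.88-fold lower, adjusted p = 0.00323). Ulk1, the kinase that starts autophagy, was at 6.34, 6.64, 7.42 and 6.74 in AL and 5.16, 5.91, 5.25 and 5.61 in CR (-1.30 ± 0.27, adjusted p = 0.0049). Neither gene's groups overlapped. Sqstm1, the cargo receptor p62, fell by 0.92 ± 0.17, Zfand5, a ubiquitin-binding protein, by 1.01 ± 0.21 and Wipi1, a phosphoinositide-binding autophagy protein, by 0.69, while Gabarap, a close relative of Gabarapl1, rose by 0.70. Of the 20 glucocorticoid targets 4 fell (20%) and 1 rose (5%), with a median of -0.34. In the authors' log2 table the median was 0.23, or -0.007 relative to the median of all genes there. Of the 4 that fell, 3 are also among the atrophy genes above. The other, Fkbp5, a cochaperone of the glucocorticoid receptor, was at 1.13, 1.96, 3.06 and 2.26 in AL and 0.29, 1.69, 0.12 and 0.99 in CR (-1.33 ± 0.41, adjusted p = 0.0325). Its call was lost without AL replicate 2, 3 or 4 or CR replicate 1 or 3 (-1.38 to -1.01), and with the median of its probes. The receptor gene Nr3c1 changed by 0.32 ± 0.14 and did not pass.

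The circadian clock was the list with the largest share of higher calls. Of 22 measured genes 9 rose (40.9%, against 10.5% of all genes) and 1 fell, Csnk1d, a kinase of the PER proteins (-0.57), and the median was 0.33. In the 6-array comparison 6 were higher and 1 lower, with Per3, Hlf, Bhlhe41 and Csnk1d not called and Arntl, which encodes the activator BMAL1, the 1 called lower. Among the repressors, Per2 was at -1.76, -0.97, -0.46 and -1.61 in AL and 0.70, 0.41, 0.39 and 0.24 in CR (1.63 ± 0.26, 3.11-fold, adjusted p = 0.000846), and Cry1 was at -3.58, -3.43, -2.85 and -3.26 in AL and -2.32, -2.28, -2.46 and -2.29 in CR (0.95 ± 0.19, adjusted p = 0.00335). Both had narrower CR than AL groups and no overlap, but the Cry1 call was lost after normexp (0.29, adjusted p = 0.0605). Per3 rose by 0.89 ± 0.30 (adjusted p = 0.0492), but AL replicate 3, at -1.08, lay above CR replicate 4, at -1.75. Its call was lost without any 1 array other than AL replicate 3 or CR replicate 4 (0.67 to 0.95) and with slide as a random block. Per1, which both the clock and glucocorticoids drive, stood at 2.42 to 3.53 in AL and 2.62 to 3.42 in CR and did not pass (-0.01 ± 0.24, adjusted p = 0.976).

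Clock outputs rose with the repressors. Dbp, an output transcription factor of large daily amplitude, was at 3.78, 3.62, 3.32 and 2.84 in AL and 5.18, 5.13, 5.59 and 4.74 in CR (1.77 ± 0.28, 3.41-fold, adjusted p = 0.000752). Hlf, of the same family, rose by 1.003 ± 0.27, with AL replicate 4 low at -1.11, while Tef, the third of it, changed by 0.27 ± 0.14 and did not pass. Usp2, a clock-controlled deubiquitinase, rose by 1.08 ± 0.21, and Bhlhe40 and Bhlhe41, repressors of clock targets, by 0.67 ± 0.14 and 0.69. Nr1d2, a nuclear receptor that represses Arntl, rose by 0.60 ± 0.15, its close relative Nr1d1 changed by 0.21 ± 0.35, and the activators Arntl, Clock and Npas2 changed by -1.04 ± 0.36, 0.05 ± 0.15 and -0.32 ± 0.30. None of these last 4 passed, with Arntl nearest (adjusted p = 0.0542). Its CR pools lay at -0.04, 1.33, 0.06 and 1.37, the lowest again in replicates 1 and 3, against 1.33 to 2.33 in AL.

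Promoters of 2 clock repressors are shown because they hold the elements through which the clock is known to act, the E-box CACGTG of CLOCK and BMAL1, which is its own reverse complement, and the D-box TTATGTAA of DBP, HLF and TEF, reverse complement TTACATAA. Both are RefSeq's sequence of the 250 bases before the start on the minus strand of GRCm38.p6, 5′ to 3′, with the matches in capitals, at chr10:85185055-85185304 for Cry1 and chr4:151044666-151044915 for Per3.
Cry1: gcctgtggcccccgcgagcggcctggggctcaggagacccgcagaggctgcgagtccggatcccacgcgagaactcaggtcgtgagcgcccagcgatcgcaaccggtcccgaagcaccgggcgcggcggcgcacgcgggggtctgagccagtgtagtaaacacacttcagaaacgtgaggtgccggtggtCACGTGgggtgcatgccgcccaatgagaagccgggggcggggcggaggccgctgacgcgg
Per3: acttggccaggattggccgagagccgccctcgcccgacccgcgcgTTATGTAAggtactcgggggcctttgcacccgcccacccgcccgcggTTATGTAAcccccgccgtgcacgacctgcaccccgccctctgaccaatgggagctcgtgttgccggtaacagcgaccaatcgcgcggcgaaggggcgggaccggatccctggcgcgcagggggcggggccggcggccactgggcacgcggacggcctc
Of the 9 clock genes that rose, 7 have an entry. The E-box was found in 2 of these windows (Cry1 and Bhlhe41) and in 6.02% of all promoters in the table, and the D-box in 1 (Per3, at bases 46 and 93) and in 0.819%.

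Iron uptake genes were among the increases. Tfrc, the transferrin receptor, was at 0.26, -0.22, -0.50 and -0.37 in AL and 2.10, 1.62, 1.63 and 1.63 in CR (1.95 ± 0.33, 3.87-fold, adjusted p = 0.00116). Of 19 iron genes 5 rose and 2 fell (26.3% and 10.5%, against 10.5% and 9.85% of all genes), or 3 and 1 in the 6-array comparison, where Aco1, Alas1 and Ftl1 were not called. Steap3, an endosomal ferrireductase, rose by 0.92 ± 0.21 and Slc11a2, the iron transporter DMT1, by 0.80 ± 0.18, Alas1, which starts haem synthesis, by 0.51 and Aco1, an iron-sensing aconitase, by 0.45. The Steap3 call was lost after normexp (0.09, adjusted p = 0.482) and the Slc11a2 call with the median of its probes (0.40, adjusted p = 0.23). Ftl1, the ferritin light chain that stores iron, fell by 0.87 ± 0.22, and Ireb2, the other iron regulatory protein, by 0.70. Of the 28 antioxidant genes, many of them NRF2 targets, 7 fell and 2 rose (25% and 7.14%) around a median of -0.03, or 3 and 1 in the 6-array comparison, where Gclc, Gclm, Txnrd1, Slc7a11 and Txnrd2 were not called. Srxn1, sulfiredoxin, was at 3.37, 3.45, 3.75 and 4.27 in AL and 2.26, 2.11, 1.93 and 1.95 in CR, without overlap (-1.65 ± 0.24, adjusted p = 0.00046). Hmox1, haem oxygenase, fell by 1.15 ± 0.24, Gclm and Gclc, the subunits of the enzyme that limits glutathione synthesis, by 1.01 and 0.73, Cat, catalase, by 0.84 and Txnrd1, thioredoxin reductase, by 0.67, while Prdx1, a peroxiredoxin, and Txnrd2 rose by 0.65 and 0.42. The Gclm call was lost without AL replicate 3 or 4 or CR replicate 1 or 3 (-0.96 to -0.86). Slc7a11, the cystine transporter, was called lower but was well above background on none of the 8 arrays, so it has no fold.

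Small Maf proteins, the partners of NRF2, fell while the large Maf factor Mafa rose. Mafa was at -3.46, -2.94, -2.99 and -3.69 in AL and -1.26, -1.33, -1.47 and -1.96 in CR (1.77 ± 0.30, 3.40-fold, adjusted p = 0.00132). Mafg fell by 0.86 ± 0.15 from 1.92, 2.43, 2.63 and 2.51 to 1.53, 1.64, 1.43 and 1.43. Neither of these had overlapping groups. Mafk and Maff fell by 1.22 ± 0.32 and 2.06 ± 0.61, with AL replicate 3 highest in both (2.64 and 4.79), and without it neither was called (-0.98 and -1.41). The call was also lost without CR replicate 3 for both, and for Maff without AL replicate 4 or CR replicate 1 or 2 (-2.07 to -1.78). Of 26 immediate early genes, which respond to acute stimuli, 6 fell (23.1%, against 9.85% of all genes) and 1 rose (Klf2, 0.71), with a median of -0.54. Egr2 and Ccn1 fell by 0.89 each and Jun by 0.71, and without AL replicate 3 and CR replicate 2 only 2 were lower. Of 15 polyamine genes, Odc1, the enzyme that starts their synthesis, fell by 0.90 ± 0.19, Sat1, which breaks them down, by 1.43 ± 0.28, and Mat2a, which makes S-adenosylmethionine, rose by 0.83 ± 0.17. Of the 26 heat shock genes, the small heat shock protein Hspb1 and the heat shock factor Hsf1 came nearest to the threshold and did not pass (limma, -0.92 and 0.40, adjusted p = 0.0754 and 0.0776).

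In the contractile apparatus the largest myosin and troponin transcripts were somewhat lower. Of 18 fast glycolytic fibre genes 8 fell (44.4%) and none rose, and 2 fell in the 6-array comparison. The list's median of -0.32 was 0.04 after quantile normalization and 0.27 in the authors' log2 table. Relative to the median of all genes in those 2 settings it was -0.04 and 0.03. Tnnc2, fast troponin C, was at 10.17, 10.03, 10.16 and 10.35 in AL and 9.35, 9.02, 9.23 and 8.31 in CR (-1.20 ± 0.20, adjusted p = 0.00103), and Myh4, the myosin of the fastest fibres, fell by 0.72 ± 0.13 (adjusted p = 0.00161). After quantile normalization 7 of these 8 calls were lost, Tnnc2 and Myh4 among them, and Myl1, a fast myosin light chain, was still called. Slow fibre genes had a like median of -0.36, with 2 of 18 higher (11.1%) and 1 lower (5.56%). The median was 0.17 in the authors' log2 table, or -0.07 relative to all genes there. The slow myosin Myh7, at 7.23, 5.11, 7.70 and 7.65 in AL and 6.42, 6.93, 5.90 and 6.30 in CR, did not pass (-0.54 ± 0.53, adjusted p = 0.512), nor did Myh2 of fast oxidative fibres (-0.38 ± 0.17, adjusted p = 0.126). The median change of the muscle markers was -0.42. In the authors' log2 table it was 0.17, or -0.07 relative to all genes there. The muscle markers summed to 9168 to 10422 times the 75th percentile in AL and 6165 to 8001 in CR.

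The calcium handling list and the endplate and denervation list held more increases than the background. Of 25 genes of excitation and calcium handling 8 rose and 1 fell (32% and 4%, against 10.5% and 9.85% of all genes, with a median of 0.29). Casq2, the calsequestrin of slow and cardiac muscle, was at 0.41, 0.04, 0.53 and 0.34 in AL and 2.14, 1.70, 1.93 and 2.23 in CR (1.67 ± 0.20, 3.18-fold, adjusted p = 0.000118). Pln, phospholamban, which restrains the calcium pump, rose by 1.14 ± 0.15, Kcnc4, a potassium channel, by 1.11 ± 0.17 and Clcn1, the muscle chloride channel, by 1.03, while Kcnj2, an inward rectifier, fell by 1.25 ± 0.24. Sln, sarcolipin, was at 1.63, 2.01 and 1.81 on CR replicates 1 to 3 and at 4.16 on replicate 4 and did not pass (0.79 ± 0.44, adjusted p = 0.217). Of 20 genes on the endplate and denervation list, not all of them endplate components, 6 rose (30%) and 1 fell (Gadd45a, given above). Chrna9, an acetylcholine receptor subunit, was at -3.06, -2.91, -2.33 and -2.72 in AL and -1.30, -0.93, -0.63 and 1.30 in CR (2.37 ± 0.50, 5.16-fold, adjusted p = 0.00511), with CR replicate 4 highest. Etv5, an ETS factor of synaptic nuclei, rose by 1.42 ± 0.14 (adjusted p = 5.38e-05), Lrp4, the agrin receptor, by 1.21 ± 0.24, Ache, acetylcholinesterase, by 0.998, Chrna1, the main receptor subunit, by 0.75 and Rapsn, which clusters the receptor, by 0.60. Among the myogenic factors Myod1 rose by 1.48 ± 0.41, a call lost without AL replicate 3 or CR replicate 1 or 3 (1.08 to 1.29), and Mef2a fell by 1.02 ± 0.14.

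Of 76 cytosolic ribosomal proteins 12 were higher (15.8%) and 1 lower, with a median of 0.23, and the other 63 were not called. Over the 6 arrays 8 were higher and 1 lower. Rps26 rose by 0.89 ± 0.12 and Rps25 by 0.81 ± 0.13, while Rps19 fell by 0.83 ± 0.21, and the Rps25 call was lost with the median of its probes (0.33, adjusted p = 0.0968). Such genes have near-identical copies, and these probes may read more than 1 of them. Of 75 mitochondrial ones 8 were higher (10.7%, close to the 10.5% of all genes) and none lower, led by Mrpl35 (0.69 ± 0.17) and Mrps23 (0.63 ± 0.15), and without AL replicate 3 and CR replicate 2 only 1 was called. Of 36 complex I genes only Ndufa10 was called (0.41 ± 0.12) and of 38 genes of complexes III to V only Atp5g3 (-0.52 ± 0.15), each losing its call without some single arrays (AL replicate 2 or 3 or CR replicate 4, 0.37 to 0.40, and AL replicate 2 or 4 or CR replicate 1 or 2, -0.52 to -0.43). Among mitochondrial regulators Ppargc1b, a PPAR coactivator, rose by 1.06 ± 0.22 from 2.08, 1.83, 1.06 and 1.72 to 2.87, 2.77, 3.10 and 2.18. Its relative Ppargc1a ranged from 2.56 to 5.20 in AL and from 2.56 to 3.50 in CR and did not pass (-0.61 ± 0.60, adjusted p = 0.502).

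Nutrient signalling and genes tied to fetal programming changed in single members. Of 30 insulin and IGF genes 2 rose and 1 fell (6.67% and 3.33%, under the 10.5% and 9.85% of all genes). Rps6kb1, the kinase S6K1, rose by 0.77 ± 0.12 (adjusted p = 0.000818) and Igf1r, the IGF-1 receptor, fell by 0.86 ± 0.19. With the median of their probes both calls were lost (0.30 and -0.50, adjusted p = 0.086 and 0.244). Grb14, an insulin receptor inhibitor, rose by 0.68 ± 0.22, with a call lost without any 1 array other than AL replicate 1 or CR replicate 2 (0.55 to 0.68). Insr, Irs1 and Slc2a4 were not called (-0.33, -0.14 and -0.17). Of 20 AMPK and sirtuin genes 2 rose and 1 fell (10% and 5%, near or under the shares of all genes). Sirt1, the deacetylase often studied in calorie restriction, was at 0.67, 0.87, 1.01 and 0.94 in AL and -0.09, 0.21, -0.06 and 0.39 in CR, lower in all CR pools (-0.76 ± 0.17, adjusted p = 0.00733); with the median of its probes the call was lost. Sirt2 rose by 0.36 ± 0.09, a call lost in the 6-array comparison (0.37, adjusted p = 0.0584), as was that of Snrpn below. Igf2, the imprinted fetal growth factor, was at 1.49 to 1.80 in AL and 1.51 to 2.01 in CR (0.07 ± 0.16, adjusted p = 0.783). Of 18 imprinted genes 3 fell and 1 rose (16.7% and 5.56%, against 9.85% and 10.5% of all genes). Peg3, a zinc finger gene, fell by 1.23 ± 0.22, and Rasgrf1 and Zim1 by 2.20 and 2.08, while Snrpn rose by 0.60. The Zim1 call was lost without any 1 array other than CR replicate 2 (-2.21 to -1.66) and the Snrpn call without AL replicate 3 or CR replicate 1 (0.54 to 0.56). Rasgrf1 is also a brain gene, and brain markers fell with it, whose part in its change was not tested.

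Of 21 enzymes of DNA methylation and chromatin 5 rose and 1 fell (23.8% and 4.76%, against 10.5% and 9.85% of all genes), or 3 and 1 over the 6 arrays, where Ezh2 was not called. Tet2, which oxidises methylcytosine, was at -1.11, -1.30, -1.004 and -0.86 in AL and -2.71, -2.19, -2.56 and -2.24 in CR (-1.36 ± 0.15, 2.57-fold lower, adjusted p = 8.77e-05). Dnmt3b, a methyltransferase that sets new marks, was at -3.78, -3.60, -4.04 and -3.99 in AL and -2.90, -2.97, -3.48 and -2.89 in CR (0.79 ± 0.16, adjusted p = 0.00326), a change that was 0.08 after normexp and not called (adjusted p = 0.492). Neither gene's groups overlapped. Kdm6b, a histone demethylase, and Ezh2, the methyltransferase that sets the mark Kdm6b removes, rose by 0.76 ± 0.17 and 0.55 ± 0.14.

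Of 30 extracellular matrix genes 8 fell and none rose (26.7% lower, and 5 fell over the 6 arrays, without Col1a2, Col5a2 and Dpt). The list's median was -0.53. In the authors' log2 table it was -0.01, or -0.26 relative to the median of all genes there. Col3a1 and Col1a2, fibrillar collagens, fell by 1.38 ± 0.40 and 1.12 ± 0.33, Dpt, dermatopontin, by 1.15 ± 0.31 and Mmp14, a membrane collagenase, by 1.03 ± 0.24. The calls of Col3a1 and Col1a2 were lost without AL replicate 1 or 2 or CR replicate 2 or 4 (-1.35 to -1.15 and -1.11 to -0.84), and Dpt changed by -0.76 without CR replicate 4. Of 18 tendon and cartilage genes 4 fell and 1 rose (22.2% and 5.56%), or 1 and 1 over the 6 arrays. The most changed of them, Col2a1, the collagen of cartilage, was at 0.89, 0.91, -0.51 and 0.16 in AL and -1.71, -2.44, -1.27 and -2.64 in CR, without overlap (-2.38 ± 0.41, adjusted p = 0.00141). Of 25 leukocyte genes 2 fell (8%, against 9.85% of all genes), C1qb, a complement subunit, and H2-Aa, an MHC class II chain (-0.59 and -1.20). Of 26 interferon-stimulated genes 1 rose (3.85%, against 10.5% of all genes), Ifih1, a sensor of viral RNA (0.70). Of 26 endothelial genes 3 fell (11.5%), led by the ETS factor Erg (-1.08 ± 0.24). The shares of these 3 lists were close to or under those of all genes. Of 16 smooth muscle and pericyte genes 3 rose (18.75%), Smtn, smoothelin, by 1.17 ± 0.20, Lmod1, leiomodin, by 0.96 and Mcam, a pericyte adhesion molecule, by 0.64. The H2-Aa call was lost without AL replicate 1 or 2 or CR replicate 1, 2 or 4 (-1.20 to -0.90) and the Lmod1 call without AL replicate 2 or 4 or CR replicate 1 or 3 (0.77 to 0.91). Over the 6 arrays no leukocyte gene, 1 endothelial and 1 smooth muscle gene were called, and the Ifih1 call was lost with the median of its probes (0.27).

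The very largest decreases were genes of neurons and glia. Of 38 brain markers 25 fell and 2 rose (20 and 2 over the 6 arrays), with a median of -2.48, and their summed linear signal was 31.3 to 60.98 in AL and 31.9 to 34.5 in CR. Gria2, a glutamate receptor subunit, was at 0.69, 0.21, -0.04 and -1.52 in AL and -6.21, -7.07, -7.16 and -7.79 in CR, where 1 array of 4 was well above background. Gria1 and Nefl, a neurofilament, were below the background test on all 4 CR arrays, and their decreases were at least 68.6-fold and 71.4-fold, bounds taken against the dimmest signals well above background on each array. Kif5a, a neuronal kinesin, fell from 4.46, 3.71, 3.50 and 2.26 to -2.35, -2.35, -2.23 and -2.26 (-5.78 ± 0.57, adjusted p = 5.06e-05). In all of these genes AL replicate 1 was highest and replicate 4 lowest, the order of the brain marker median. The 2 brain markers that rose, both also expressed in muscle, were Aqp4, the water channel of fast fibres (1.26 ± 0.32), and Camk2a, a calcium-dependent kinase (1.08 ± 0.19). With a per-array index of brain markers as a covariate the fatty acid synthesis, clock, fasting and atrophy lists had 9, 9, 1 and 1 higher and 3, 1, 8 and 9 lower members. The brain markers themselves still had 32 lower and 2 higher members in that fit, with a median of -2.15. The index thus did not take out the brain signal, and these counts cannot tell whether the other lists depend on it.

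A further set of decreases was sorted by its level on the arrays richest in brain RNA. Among the called decreases, 1711 of 2445 were less than 0.5 log2 units higher on control AL replicates 1 and 2, the arrays with the most brain RNA, than in undernourished AL. The share of all genes under this cut was not counted, so the count does not set these decreases apart. The cut also compares offspring of control and of undernourished dams. The largest decreases under the cut that did not overlap and were well above background on all 8 arrays were looked at after their values had been seen. Beside Pdk4, Fbxo32 and the others above they held Arid5b, a chromatin factor of adipose and muscle metabolism, at 2.25, 2.41, 2.80 and 3.24 in AL and 0.91, -0.37, 0.997 and 1.08 in CR (-2.02 ± 0.29, adjusted p = 0.00046), though the median of its probes gave -0.62 and no call (adjusted p = 0.23). Gigyf2, a translational repressor, was at -0.46, 0.25, 0.59 and 0.55 in AL and -1.70, -1.84, -1.78 and -1.42 in CR (-1.92 ± 0.20, adjusted p = 7.61e-05). Wdr95, a gene of unknown role, was at -2.09, -2.11, -2.02 and -2.15 in AL and -4.20, -4.40, -3.74 and -3.96 in CR, the tightest separation of these (-1.98 ± 0.19, adjusted p = 4.37e-05). Tnfsf12, the cytokine TWEAK, and its receptor Tnfrsf12a, Fn14, both of which act in muscle wasting, fell by 1.78 ± 0.19 and 1.84 ± 0.44, the receptor from 4.02, 3.66, 3.19 and 5.89 to 2.505, 2.32, 2.11 and 2.47. Plaat5, a phospholipid-modifying enzyme, Tmem140 and Mfap4, a matrix fibril protein, fell by 3.11 ± 0.59, 2.17 ± 0.49 and 1.92 ± 0.34. Syn1, synapsin, is a brain marker whose AL values of 3.29, 3.47, 3.601 and 3.77 ran against the brain order, and it fell to 0.76 to 1.64.

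Further large increases belonged to no list. Fam78a rose by 2.45 ± 0.40 and 6430571L13Rik by 2.43 ± 0.42, both of little known function, with AL replicates 3 and 4 lowest in each. Cish, an inhibitor of cytokine and growth hormone signalling through STAT5, was at -1.23, 1.68, 1.54 and 0.73 in AL and 2.19, 2.79, 2.40 and 2.89 in CR (1.88 ± 0.53, adjusted p = 0.0224). Without AL replicate 1 its change was 1.25, and it was not called without CR replicate 2 or 4 (1.81 and 1.78). Ky, a muscle protein whose loss gives kyphoscoliosis, and Zfp503, a zinc finger repressor, rose by 1.81 ± 0.35 each, Unc13c, a vesicle priming factor, by 2.03 ± 0.39 and Amigo3, a cell adhesion molecule, by 1.75 ± 0.32. In 874 of the 24826 genes tested all 4 CR arrays and no AL array were well above background and in 35 the reverse, beside the lower share of spots above background on the AL arrays given above. The filter asks for 4 arrays, so such a gene can pass it through the CR arrays alone. Of the 874, 340 have a symbol, and 75 of these 340 have a bound above 1-fold. Among them, Nectin4, Has3, Rad9b and Tecta had bounds of 2.40-, 2.30-, 2.19- and 2.09-fold higher in CR, which rest on the detection limit of each AL array. After normexp background correction the changes of all 4 were only -0.10 to -0.01, beside a median of -0.24 for all genes, so the bounds did not hold there. The Tecta call was lost without AL replicate 4 or CR replicate 1 (1.46 to 1.64). The Has3 and Tecta calls were also lost over the 6 arrays (adjusted p = 0.0521 and 0.089).

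The last question was whether restriction acted differently after fetal undernutrition. In offspring of control dams the same contrast called 8027 genes (32.3%), and 3627 genes were called in both, 71.8% of the calls in undernourished offspring and 45.2% of those in control offspring, all but 7 in the same direction. The 2 contrasts share no array but share the slides, the scan days and the estimate of spread. Of 38 brain markers 33 were called lower in control offspring (median -3.94) and 25 in undernourished offspring. Of 20 skin markers 15 were called lower in control offspring (median -2.74) and none in undernourished offspring. The part of RNA from other tissues in the shared calls was not tested. Changes of G0s2, Scd1 and Fasn were 4.17, 2.78 and 2.28 in undernourished and 3.29, 1.73 and 1.33 in control offspring, those of Per3, Cry1 and Mafa 0.89, 0.95 and 1.77 against 2.10, 1.67 and 2.75, and those of Pdk4, Fbxo32 and Trim63 -2.72, -2.23 and -1.86 against -2.97, -2.16 and -1.78. None of these 9 differences passed the interaction test (limma, adjusted p = 0.491 to 0.98).

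The interaction called 1 gene of 24826 (0.00403%), with 2397 at an unadjusted p under 0.05, and the next smallest adjusted p was 0.167. This gene was Sptlc3, a subunit of serine palmitoyltransferase, the enzyme that begins ceramide synthesis. It was at -7.72, -7.69, -7.56 and -7.51 in undernourished AL, where no array was well above background, and at -5.86, -6.18, -6.48 and -5.61 in undernourished CR, where 3 were. In control offspring it was at -4.99, -4.93, -5.66 and -5.80 in AL and -6.32, -6.20, -6.14 and -5.98 in CR. The fitted changes had opposite signs, 1.59 and -0.82, and limma's adjusted p for their difference was 0.0229. With a group below detection these fitted values give no size of change. In undernourished offspring the sign turned after normexp (-0.26, beside a median of -0.24 for all genes). Skin markers were high on 3 control AL arrays (-1.15, 0.12 and -1.03, against -4.46 on replicate 4), and their part in this difference was not tested; the signals are also near background, and no gene passed after normexp background correction or with the brain index. Sptlc3 was not called without any 1 of control AL replicates 1 and 2, control CR replicates 1, 2 and 3, undernourished AL replicates 1, 3 and 4 and undernourished CR replicates 1 and 2, while without control AL replicate 4 the test called 91 genes.

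**Figure D5:**
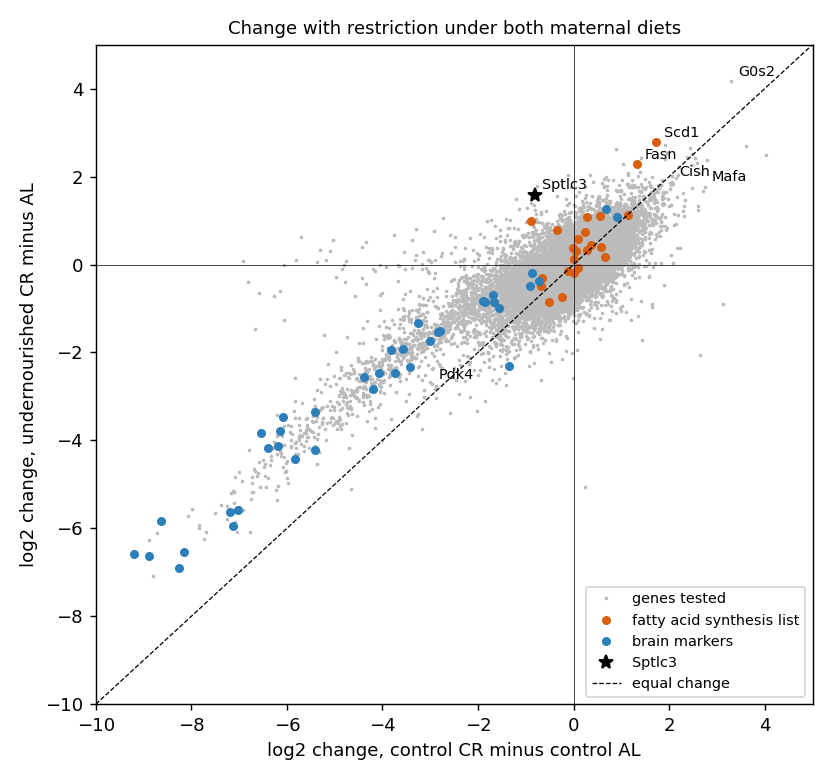
Log2 change with restriction in offspring of control dams (x axis) and of undernourished dams (y axis), 1 point per gene of 24826; fatty acid synthesis genes are orange, brain markers blue, Sptlc3 a star, and the dashed line marks equal change. Brain markers lie above the line at the lower left, with changes larger in control offspring, and Sptlc3 lies in the upper left, at -0.82 and 1.59.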

How the data were processed

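Muscle RNA of 16 pools was labelled with Cy3 and hybridised to 1-colour Agilent arrays, per the labels. The deposited intensity values are processed signals of Agilent Feature Extraction 10.5.1.1, per the submitters' processing notes, background-subtracted and not normalized between arrays, per the file headers. The other deposited columns used were the spot and background median intensity and the flags. Signals were log2 transformed and centred on each array's 75th percentile over gene spots, without outlier spots. A gene took its brightest probe among those well above background on at least 4 arrays, named through RefSeq accessions (24844 of 41174 probes matched). limma 3.58.1 in R 4.3.3 fitted 4 group means over 16 arrays, with Benjamini-Hochberg adjustment over 24826 genes, and was tested on simulated data. Saturated spots numbered 0, and the number of arrays limits the precision.

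The members and gene lists were chosen with earlier results of these data known. Genes named are the largest changes without overlap, in the main fit and with a brain index as covariate, up to 4 called members of each list, the called interaction, the largest bounds of genes detected in 1 group, a set of metabolic and clock genes, and decreases under the cut on the control AL arrays richest in brain RNA, chosen after values were seen. Further list members are named as examples. Results for some genes counted here are not reported. The authors' deposited log2 table was an alternative, with every probe centred on its median over 16 arrays. Differences between arrays in it correlate with those of the scanner values (median r 0.831 between scan days), but 12 of the 208 called named genes changed sign. The table's scale is narrower (median slope 0.522 between scan days), and how it was normalized is not stated. Its column medians, replicates 1 to 4, were -0.0438, -0.0239, -0.0086 and -0.0087 in undernourished AL, 0.0265, 0.033, 0.0342 and 0.0171 in undernourished CR, -0.0881, -0.1006, -0.0265 and -0.0041 in control AL and 0.0267, 0.0301, 0.0305 and 0.0374 in control CR. Other alternatives were normexp (on median signals, since no mean signal column was present, with background-outlier spots set to the array's median background on arrays where the fit failed), quantile normalization, filters, probe rules, blocks, covariates and arrays left out.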

Additional observations from a re-analysis of the deposited data

Results flagged for a closer look

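Of 468 groups of 4 arrays examined among the named genes, 32 had 1 array standing apart from the other 3 by Dixon's criterion, which chance meets in about 1 group in 20. Values are log2 signals relative to the array's 75th percentile. In undernourished AL the arrays apart were replicate 1 for Grb14 (2.85) and Olfr772 (-3.91), replicate 2 for Nectin4 (-7.19) and Psma5 (6.05), replicate 3 for Calml3 (-3.37), Kcnj2 (-1.51), Pln (-3.42), Snrpn (1.14) and Zim1 (-3.24), and replicate 4 for Abca1 (-0.033), Eno3 (9.53), Hlf (-1.11), Rpl21 (-3.06) and Slc7a11 (-7.47). In undernourished CR they were replicate 1 for Mmp14 (0.85) and Tfrc (2.10), replicate 2 for Arid5b (-0.37), Fam170a (-5.86), Odc1 (5.42) and Tcap (9.16), and replicate 3 for Dnmt3b (-3.48), Fgf21 (-5.39), Lep (-3.22) and Lrrc27 (-4.04). Replicate 4 of the same group stood apart for Acadsb (2.81), Chgb (-3.18), Erg (-5.60), Ftl1 (2.95), Nod2 (-2.53), Rps19 (1.499), Rps25 (7.60) and Sln (4.16). The change with restriction differed between undernourished and control offspring in Sptlc3 alone, by a fitted 2.41 (limma interaction, adjusted p = 0.0229), with signals below detection on every undernourished AL array.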

How the results depend on the processing

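Against 5054 called genes, limma called 4492 with the 8 undernourished arrays alone, 3949 with slide as a random block, 13083 after normexp (10081 lower), 5429 after quantile normalization, 11850 in the authors' log2 table (10322 higher, 1528 lower), 10080 without a filter on dim probes, 4710 with a filter of all 16 arrays, 6233 with the brain index, 4596 with all 3 indices, 400 against a 1.5-fold change (72 higher, 328 lower), 7170 with array weights, 2638 without undernourished AL replicate 3 and CR replicate 2 (1323 higher, 1315 lower), and 3677 to 4704 without each undernourished array in turn (1898 to 2464 higher, 1769 to 2240 lower). The cause of these shifts was not tested. The interaction called 1 gene in the reported fit, 0 with the replicate block, normexp, the authors' table, the filter of all 16 arrays, the brain index, all 3 indices or those 2 arrays left out, 2 with array weights, and 0 to 91 without each array. With the replicate block 5074 genes were called; same-numbered arrays deviated together with correlations of -0.14 to 0.01, so the numbers do not pair the samples. Directions turned after normexp for Ager (-0.40), Ccl7 (-0.23), Fam170a (-0.18), Fgf21 (-0.47), Gldn (-0.24), Has3 (-0.0235), Mmp8 (-0.0603), Myl6b (-0.46), Nectin4 (-0.011), Rad9b (-0.10), Sptlc3 (-0.26), Ssmem1 (-0.0847) and Tecta (-0.0457). In the authors' table they turned for Apln (0.0563), Atp5g3 (0.0919), Cpt2 (0.0901), Dll1 (0.37), Eno3 (0.12), Ldha (0.0903), Mstn (0.43), Myh1 (0.15), Myl3 (0.20), Myl6b (-0.0133), Psma5 (0.19), Psme3 (0.10), Slc25a4 (0.0871), Tnni2 (0.0566) and the fast glycolytic fibre median (0.27), and with the median of probes for Acaca (-0.15) and Apln (0.91). These signs are not relative to the median of all genes, which was -0.24 after normexp and 0.24 in the authors' table. Many of the turned values under those 2 settings are smaller than these shifts. Of 208 called named genes, 155 were called without each undernourished array in turn. Signals near background limit what can be said of dim genes.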
